A study of Arabidopsis thaliana with 6 samples.

Results

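AT5G52720, AT5G52740, AT5G52750, AT5G52760 and AT5G52770 are neighbouring loci of Arabidopsis thaliana that are labelled as genes for heavy-metal-associated proteins, and their RNA was measured here in seedlings mutant for SET DOMAIN GROUP 2 (SDG2). All 5 loci listed have a probe set that names 1 gene and were kept, out of 13334 genes with such a probe set on the arrays. The cluster was chosen by the rise of AT5G52760 in the mutant, which ranks 12 among all probe sets naming 1 gene, and the other loci were added because they lie beside it. The choice thus used the comparison of the genotypes, and the members' differences between genotypes are given below as descriptions, with no p-value.

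The study profiled whole seedlings of the Columbia accession (Col-0), 3 samples of the sdg2 mutant and 3 of wild type, on 1-colour Affymetrix arrays. Per the labels' protocols the seedlings were raised on Murashige and Skoog plates of reduced strength for 10 days, at 22 °C and with 24 h of light per day, without any other treatment. The labels call the mutant only "sdg2 mutation" and name neither the allele nor the number of lines, and SDG2 has no probe set named in the tables used here, so the labels were not checked against the mutated gene. The samples are called biological replicates, but nothing says how they were separated, and the p-values below therefore cover the variation among these 6 samples alone, part of which may be technical. In RNA from whole seedlings, fewer cells of a type and less RNA per cell cannot be told apart.

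Heavy-metal-associated (HMA) domains are small folds that bind a metal ion, classically through a pair of cysteines, and occur in copper chaperones and in metal-pumping ATPases. Plants have a large family of small proteins built around this domain, many of them carrying a lipid anchor at the C-terminus, and members of the family have been linked to copper, zinc and cadmium handling and to responses to pathogens. In rice, small HMA proteins are bound by effectors of the blast fungus. SDG2 is a methyltransferase that adds the trimethyl mark to lysine 4 of histone H3, a mark found at active genes.

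All values are log2 values per probe set, processed by the authors with GCRMA, which adjusts for background and brings the arrays to a common distribution. They carry no call of presence or absence. The peak of dim probe sets, called the lower mode here, was at 2.27 to 2.30 depending on the array, and 30.8% of the 22746 probe sets tested had a mean below 3 in both genotypes. Array medians ran from 5.90 to 5.96, and arrays of the same genotype correlated at 0.997 or more. Of the fixed markers of shoot and root, 6 were measured and all were well above the lower mode. Their changes in sdg2 ran from -0.77 in the antenna gene LHCB4.2 to 0.09 in the Rubisco activase gene RCA. The antenna gene LHCB4.1, also a shoot marker, changed by 0.08. The root markers EXPA7, EXPA18 and PYK10 changed by -0.75, -0.33 and -0.33. At an adjusted p below 0.05 in limma 3 markers were lower, LHCB4.2, EXPA18 and PYK10, and 0 higher. Of all probe sets 17.6% were lower and 19% higher. Among probe sets with a mean of 3 or more in a genotype, as in all 6 markers, 52.6% were called. The part of tissue make-up in the results below was not tested.

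AT5G52760 and AT5G52750, which lie side by side, were clearly above background in sdg2 and higher there than in wild type, whereas AT5G52720, AT5G52740 and AT5G52770 stayed close to the level of dim probe sets in both genotypes. AT5G52760 was dim in wild type and moderately bright in sdg2. AT5G52750 was well above background in both genotypes and differed by just under 2-fold. In the fit across all probe sets 2 of the 5 members lay past an adjusted p of 0.05 in limma, both of them higher in sdg2, a count given only beside its background. Over all probe sets 36.6% passed in either direction and 19% were higher, and 5.06% were higher by at least 2-fold, as was 1 of the 5 members, AT5G52760. The genotypes did not overlap in 2 of the 5 members, against 48.3% of all probe sets, in 24.2% with sdg2 above. Since the comparison itself led to the choice of these loci, nothing is read from these counts.

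AT5G52760 had values of 8.18, 8.24 and 8.05 on the 3 sdg2 arrays, against 3.68, 5.20 and 4.01 on the 3 wild type arrays. All sdg2 arrays lay above all wild type arrays, with a gap of 2.85 between the nearest of them. The means were 8.16 ± 0.10 in sdg2 and 4.30 ± 0.80 in wild type (SD, n = 3 each), a difference of 3.86 ± 0.41 (moderated SE) or 14.5-fold. The wild type level is dim although above the lower mode, and the wild type replicates themselves spanned 1.52 log2 units, so the fold is imprecise. Among all 22746 probe sets this was the 44th largest rise, and the sdg2 mean was above that of 75.8% of probe sets, against 39.3% for the wild type mean. Leaving out wild type replicate 2, the highest of its genotype, gave a difference of 4.31, and leaving out wild type replicate 1, the lowest, gave 3.55.

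AT5G52750 had values of 8.99, 8.80 and 8.77 in sdg2, against 7.80, 7.96 and 7.86 in wild type. The groups again did not overlap, with a gap of 0.81 between the nearest arrays, and the spread within each genotype was small. The means were 8.85 ± 0.12 in sdg2 and 7.87 ± 0.08 in wild type (SD, n = 3 each), a difference of 0.98 ± 0.08 or 1.98-fold. Unlike its neighbour this locus was bright in wild type, above 72.4% of all probe sets, and it was above 83.1% of them in sdg2. Its difference stayed between 0.92 and 1.03 when any of the 6 arrays was left out.

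**Figure D1:**
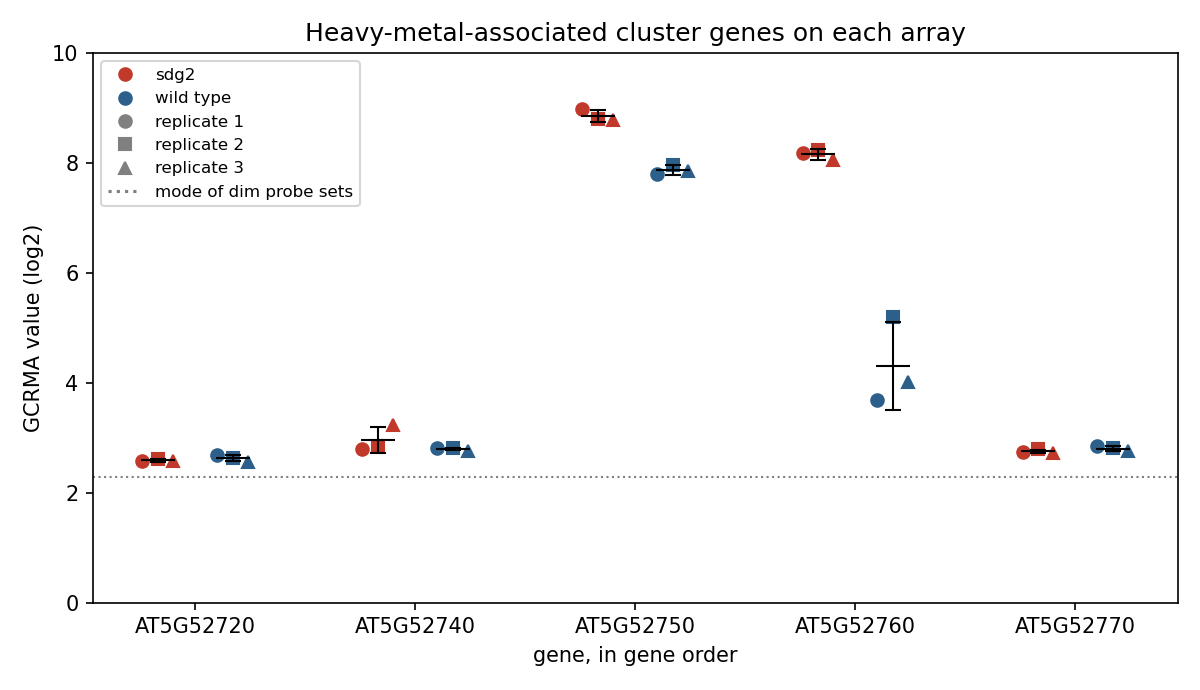
GCRMA values (log2, y axis) of the 5 loci in gene order (x axis) on each array, sdg2 in red to the left and wild type in blue to the right, with replicates 1 to 3 as circle, square and triangle, black bars for the mean and SD of 3 arrays and a dotted line at the mean lower mode of the arrays. AT5G52760 has sdg2 arrays between 8.05 and 8.24 and wild type arrays between 3.68 and 5.20, AT5G52750 is bright in both genotypes, and the other loci sit just above the dotted line.

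The other 3 loci gave no signal that could be told from that of dim probe sets. AT5G52740 had values of 2.80, 2.85 and 3.23 in sdg2, against 2.81, 2.81 and 2.76 in wild type. Only sdg2 replicate 3 stood above the others, and the groups overlapped. The difference was 0.17 ± 0.12, and it was 0.03 without sdg2 replicate 3.

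AT5G52720 had values of 2.58, 2.62 and 2.57 in sdg2, against 2.68, 2.63 and 2.57 in wild type. AT5G52770 had values of 2.74, 2.79 and 2.73 in sdg2, against 2.85, 2.81 and 2.75 in wild type. Both overlapped between the genotypes, with differences of -0.04 ± 0.04 and -0.05 ± 0.04. In both loci wild type replicate 1 was the highest and wild type replicate 3 the lowest of their genotype, and sdg2 replicate 2 the highest of its own. The median of the 6996 probe sets with a mean below 3 in both genotypes had the same order, with 2.24, 2.26 and 2.24 in sdg2 replicates 1 to 3, against 2.28, 2.26 and 2.25 in wild type replicates 1 to 3. At this level neither a presence of these transcripts nor a difference between genotypes was detectable.

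Each of the 5 genes is represented by a single probe set, and whether the probes of one locus also bind transcripts of its neighbours was not tested. The probe sets of AT5G52720, AT5G52740 and AT5G52770 read 3.23 or less on the same sdg2 arrays on which AT5G52750 and AT5G52760 read 8.05 or more.

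The replicates of the brighter pair were also compared within each genotype, which does not use the difference between them. In wild type, replicate 2 was the highest and replicate 1 the lowest array for both loci. The deviations from the wild type mean were 0.90 for AT5G52760 and 0.09 for AT5G52750 in replicate 2, and -0.62 and -0.08 in replicate 1. In sdg2, replicate 3 was the lowest array for both, at -0.11 for AT5G52760 and -0.08 for AT5G52750, while the highest was replicate 2 for AT5G52760 and replicate 1 for AT5G52750. With 3 arrays per genotype these orders are a description only.

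The wild type spread of AT5G52760 was large for its level. Its SD of 0.80 exceeded that of 99.1% of the 1199 probe sets whose wild type mean lay within 0.5 of its own. In sdg2 its SD of 0.10 was at the 50th percentile of 2656 probe sets of like mean. The SDs of AT5G52750 lay above those of 69.5% of probe sets of like mean in sdg2 and of 38% in wild type. AT5G52740 had a larger SD than 79.7% of such probe sets in sdg2, through replicate 3, and than 32.8% in wild type.

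**Figure D2:**
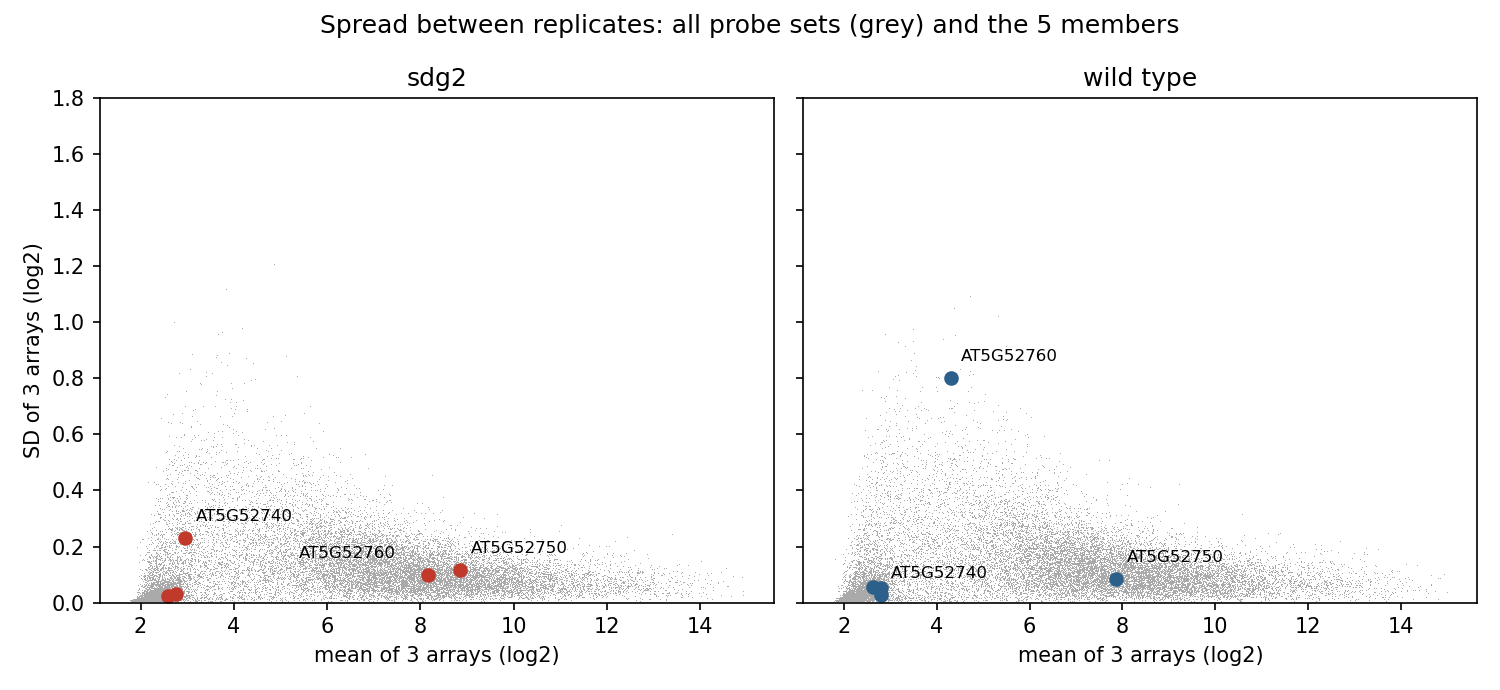
Spread between replicates (SD of 3 arrays, log2, y axis) against the mean of 3 arrays (log2, x axis) for all 22746 probe sets (grey points) and the 5 loci (large points), sdg2 on the left and wild type on the right. AT5G52760 stands at the upper edge of the cloud in wild type, with an SD of 0.80, and within it in sdg2, with an SD of 0.10.

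The genes with the pattern most like AT5G52760 over the 6 arrays were sought among probe sets naming 1 gene, by the root mean square distance between values centred on each gene's own mean. The nearest was AT5G03350, at a distance of 0.386, with 8.50, 8.35 and 8.61 in sdg2, against 4.87, 5.21 and 4.49 in wild type. The defensin gene PDF1.2b followed at 0.399, with 9.01, 9.06 and 8.81 in sdg2, against 5.41, 5.65 and 5.13 in wild type. AT1G13750, AT4G14090 and ChiC, a class V chitinase gene, came next at 0.418, 0.423 and 0.428. All 5 share with AT5G52760 a large difference between genotypes, from 3.22 to 3.82 in these genes, and wild type replicate 2 as the highest of its genotype. The choice by distance favours genes with both traits, so nothing is read from their sharing them.

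AT5G52750 had closer matches. AT2G33490, AT2G35410, AT5G43440, AT5G38210 and AT1G67300 lay at distances of 0.0339 to 0.0562 from it, with differences between genotypes of 0.95 to 1.03. AT5G52760 was not among them, and its own 5 nearest genes did not include AT5G52750. The distance is not scaled for the size of a change, so differences of 3.86 and 0.98 alone keep the pair apart. Whether the pair differ in pattern apart from size was not tested by it. As all of these patterns are dominated by the difference between 2 groups of 3 arrays, the likeness says little beyond its size.

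Along the gene order of the TAIR10.1 assembly, the high pair lay between loci at background. The gene table places AT5G52740 just before the pair and AT5G52770 just after it. AT5G52700 and AT5G52730 were not analysed here. AT5G52710, the nearest measured neighbour before the 5 loci, was at background with means of 2.11 in sdg2 and 2.12 in wild type. AT5G52670, AT5G52680 and AT5G52690, before it, were at background as well, with means between 2.33 and 2.71 and differences of -0.03 to -0.02. These 4 loci are also on the list of relatives below, so of the 9 measured HMA loci in this run only AT5G52750 and AT5G52760 gave signal above 3 in a genotype mean.

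Changed genes after the run went both ways, and the only called gene before it, AT5G52660, was lower. Of 15 measured flanking genes between AT5G52640 and AT5G52900, 2 were higher, 3 lower and 10 did not pass in limma, with a median change of -0.02. The share called was 33.3%, against 36.6% of all probe sets, whose median change was -0.01. The 4 HMA loci at background named above are among the 15, and outside the run 5 of 11 measured genes were called. Where the mean was 3 or more in a genotype, 5 of 7 flanking genes were called, against 52.6% of all probe sets at that level.

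AT5G52780, the next gene after AT5G52770, had values of 8.14, 7.95 and 8.12 in sdg2, against 8.77, 8.79 and 8.75 in wild type. It fell by 0.70 ± 0.06 (adjusted p = 0.000586 in limma), with no overlap between the groups. AT5G52790, which follows, was dim, with a difference of -0.60 ± 0.26 that did not pass (adjusted p = 0.138 in limma). That difference passed without wild type replicate 1 (adjusted p = 0.0239 in limma), with a value of -0.85, and was -0.36 without wild type replicate 3 (adjusted p = 0.203 in limma).

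AT5G52810, which stands 6 places after AT5G52760 in the gene table, rose most among the flanking genes. Its values were 7.34, 7.38 and 7.15 in sdg2, against 5.27, 5.13 and 4.94 in wild type. The rise of 2.17 ± 0.11, or 4.50-fold (adjusted p = 0.000123 in limma), separated all arrays of the genotypes.

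NOTCHLESS (AT5G52820), the next protein-coding gene, fell by 0.62 ± 0.06, with means of 8.27 in sdg2 and 8.89 in wild type. AT5G52840 rose by 0.43 ± 0.05 and AT5G52660, on the other side of the cluster, fell by 0.85 ± 0.13. AT5G52800, between AT5G52790 and AT5G52810, was at background in both genotypes.

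**Figure D3:**
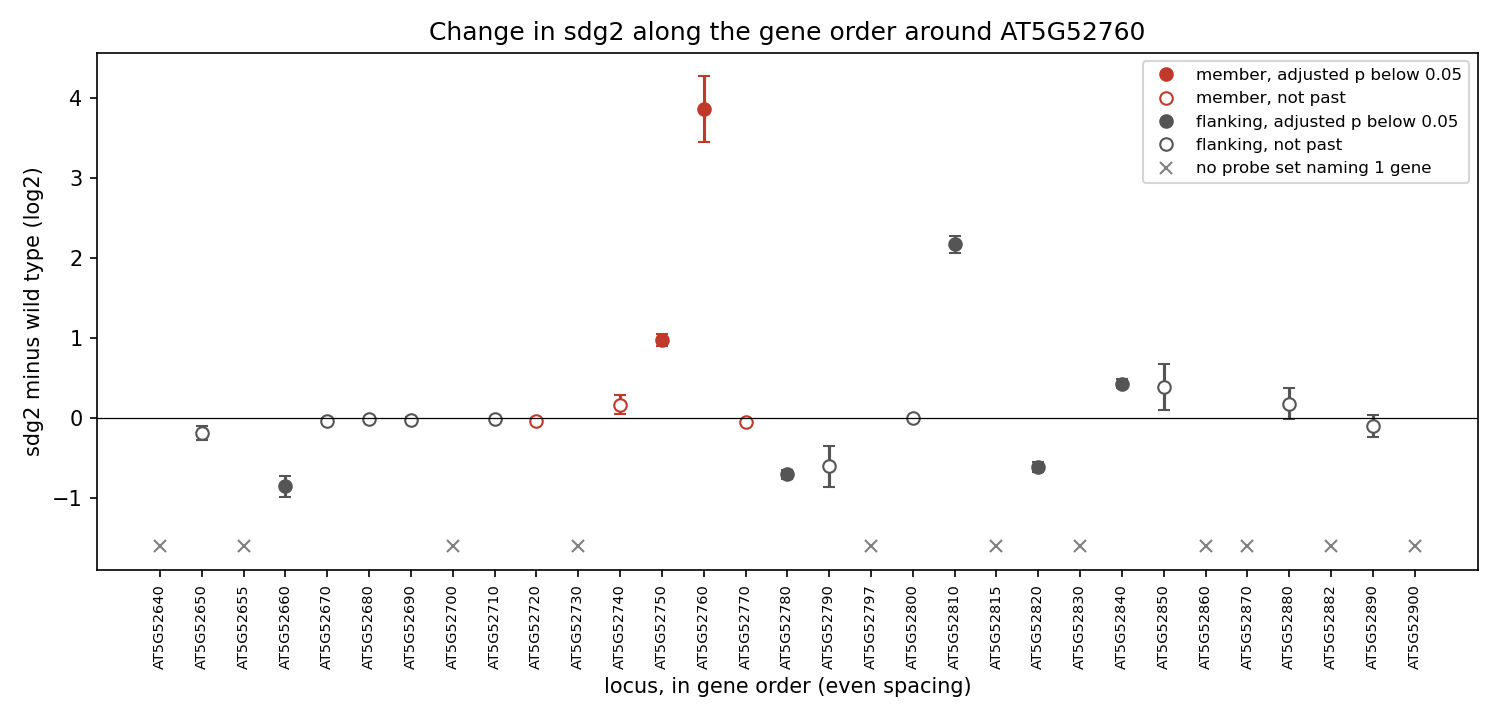
Difference between sdg2 and wild type (log2, y axis, bars are the moderated SE) for measured genes in gene order with even spacing (x axis), the 5 loci in red and flanking genes in grey, filled where the adjusted p is below 0.05, with crosses for loci without a probe set naming 1 gene. AT5G52750, AT5G52760 and, further on, AT5G52810 stand above 0, while AT5G52780 and AT5G52820 lie below it.

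Other genes for HMA-domain proteins were also compared between the genotypes. A list of 50 such loci outside the 5 had 26 genes measured by a probe set naming 1 gene. The list was drawn up from general knowledge of the family, since the gene table does not describe these loci. Earlier results of these data were known when it was chosen, so nothing is read from its split into rises and falls. Of the 26, 1 rose, 7 fell and 18 did not pass in limma, where 19% of all probe sets were higher and 17.6% lower. Their median change was -0.04, with a range from -2.18 to 0.56. In 11 of the 26 the mean was below 3 in both genotypes. The 30.8% called compares with 36.6% of all probe sets. Where the mean was 3 or more in a genotype, 8 of 15 relatives were called, against 52.6% of all probe sets at that level. The count of relatives called in either direction is thus near the background.

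The falls were larger than the rise. AT3G48970 had values of 3.30, 3.08 and 3.05 in sdg2, against 5.60, 5.80 and 4.59 in wild type. It fell by 2.18 ± 0.34 (adjusted p = 0.00546 in limma), and in sdg2 it lay near the level of dim probe sets.

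AT5G24580 had values of 5.20, 5.41 and 4.96 in sdg2, against 7.33, 7.53 and 6.88 in wild type, and fell by 2.06 ± 0.21 (adjusted p = 0.00115 in limma). AT3G24450 fell by 1.66 ± 0.11, with means of 5.01 in sdg2 and 6.68 in wild type. AT1G23000 fell by 1.49 ± 0.14 and AT2G36950 fell by 1.06 ± 0.06. Smaller falls were those of AT1G01490, with a change of -0.76, and AT3G06130, with -0.47.

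AT3G05220 was the 1 relative that rose, by 0.34 ± 0.07, with means of 10.37 in sdg2 and 10.03 in wild type (adjusted p = 0.0178 in limma). Its call was lost without wild type replicate 3, sdg2 replicate 1 or sdg2 replicate 2, at adjusted p of 0.0502 to 0.0609 in limma. No measured relative rose by 2-fold, against 5.06% of all probe sets. A fall of that size was seen in 5 of the 26, against 5.51% of all probe sets. The largest positive difference, 0.56 ± 0.23 in AT5G48290, did not pass, and a difference of -0.48 ± 0.17 in AT5G23760 did not pass either (adjusted p = 0.0824 in limma), although the groups of both did not overlap. The difference of AT5G23760 passed with the filter on dim probe sets, a trended and robust eBayes, array weights or without sdg2 replicate 2 (adjusted p of 0.0197 to 0.048 in limma), and ranged up to an adjusted p of 0.205 in limma over the other alternatives. AT5G50740 has a brighter probe set with a difference of 0.03 and a dimmer one with -0.36, neither of which passed.

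**Figure D4:**
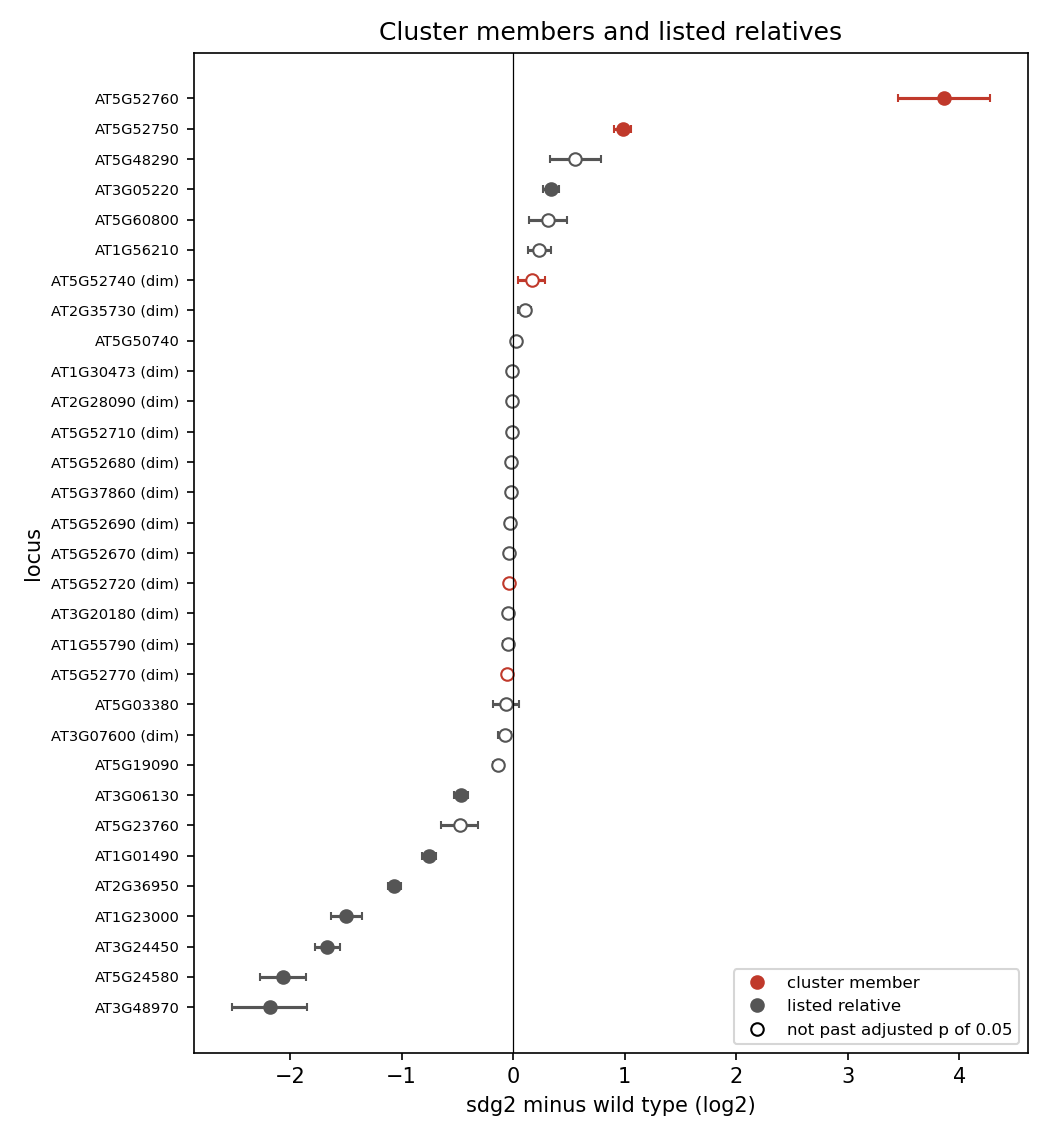
Difference between sdg2 and wild type (log2, x axis, bars are the moderated SE) of the 5 loci (red) and 26 listed relatives (grey), ordered by value, filled where the adjusted p is below 0.05 and marked dim where both genotype means are below 3. AT5G52760 at 3.86 and AT5G52750 at 0.98 stand at the top, and the relatives run from -2.18 to 0.56.

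Genes of metal handling were thinly covered by probe sets naming 1 gene. In the platform annotation 8730 of the 22746 probe sets tested name no gene. A listed gene not counted as measured may thus still be on the arrays. Of 63 listed genes of copper, zinc and iron transport, chelation and regulation 4 were measured, of which 2 rose, 1 fell and 1 did not pass in limma, where 36.6% of all probe sets passed. At a mean of 3 or more in a genotype, 3 of 3 were called, against 52.6% of all probe sets at that level. BHLH101, a transcription factor of the iron deficiency response, rose by 3.55 ± 0.10, with means of 6.52 in sdg2 and 2.98 in wild type, where it was near background. CCS, the copper chaperone that loads superoxide dismutase, had values of 7.42, 7.31 and 7.26 in sdg2, against 6.85, 6.81 and 7.11 in wild type.

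CCS rose by 0.41 ± 0.10 (adjusted p = 0.0241 in limma), a call lost when replicate 1 or 2 of either genotype was left out (adjusted p of 0.0676 to 0.0797 in limma) and with the replicate number as a block (adjusted p = 0.0727 in limma). MT1C, a metallothionein gene, fell by 0.48 ± 0.07, with means of 13.33 in sdg2 and 13.81 in wild type. The zinc transporter gene ZIP9 was dim in both genotypes and had a difference of -0.14 that did not pass.

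Of 40 listed genes of salicylic acid signalling and pathogen response 5 had a probe set naming 1 gene, with the same limit on coverage. Of these 4 rose and 1 did not pass in limma, where 19% of all probe sets were higher. Where the mean was 3 or more in a genotype, 4 of 4 were called, against 52.6% of all probe sets at that level in either direction. The list was drawn up because some HMA genes have been linked to pathogen responses, and it holds the flanking gene AT5G52810. AT3G60420 had values of 6.93, 7.22 and 7.40 in sdg2, against 4.68, 4.04 and 4.40 in wild type, and rose by 2.81 ± 0.21 (adjusted p = 0.000401 in limma). A dimmer probe set of the same gene, at 2.27 in sdg2 and 2.29 in wild type, had a difference of -0.02.

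SAG101, which acts with EDS1 in plant immunity, rose by 1.75 ± 0.16, and WRKY53, a transcription factor of ageing and defence, by 0.38 ± 0.05. The median change of the 5 genes was 1.75, against -0.01 over all probe sets. This list of defence genes was chosen with earlier results of these data known, so nothing is read from its count or median. AT4G26120 was at background in both genotypes.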

How the data were processed

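RNA of 3 sdg2 and 3 wild type seedling samples was measured on 1 array each. The deposited table holds log2 values made with GCRMA, per the submitters' processing notes, with no version or settings stated there. Of 22810 probe sets, 64 Affymetrix controls were left out. Of the 22746 tested, 13513 name 1 gene, 503 several and 8730 none in the platform annotation; 13436 matched the NCBI table of assembly TAIR10.1, used for names and gene order only. The difference sdg2 minus wild type was fitted by lmFit and eBayes (limma 3.58.1, R 4.3.3) and p-values were adjusted by Benjamini-Hochberg over all tested probe sets, with a threshold of 0.05; the script was tested on simulated data. A gene with several probe sets is represented by its brightest. The number of arrays limits the precision.

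The members and lists were chosen with earlier results of these data known. The rule for named genes took all members, flanking genes past the threshold and the nearest on each side, up to 3 rises and 3 falls of each list, and the 5 genes most like AT5G52760 and AT5G52750; other list members named were chosen after their values were seen. As alternatives the fit was rerun without each array, with array weights, with a trended and robust eBayes, on probe sets at 5 or more on at least 3 arrays, after centring on the median or quantile normalization, and with the replicate number as a block. Same-numbered arrays of the genotypes had deviations from their group means that correlated at -0.00816, 0.072 and 0.0636. Arrays with unlike numbers correlated at -0.0823 to 0.0129. Whether the numbers pair the samples cannot be told from such weak correlations. No sequence is shown, and a family list by protein similarity was not used here. Figures were drawn with matplotlib 3.10.9.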

Additional observations from a re-analysis of the deposited data

How the results depend on the processing

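The filter on dim probe sets kept 2 of the 5 members, AT5G52750 and AT5G52760. The difference of AT5G52760 ranged from 3.35 with array weights to 4.31 without wild type replicate 2. With the replicate number as a block, 7865 probe sets were called, against 8327 without it. In that fit 8 HMA relatives, 5 flanking genes and 4 defence genes were called, and 2 metal genes against 3, the call of CCS being lost. Whether the numbers pair the samples is not known. Between 8187 and 9213 probe sets were called with the other alternatives on 6 arrays, and 7368 to 7565 with 1 array left out. Leaving out 1 array gave 7 to 9 relatives, 5 or 6 flanking genes, 2 or 3 metal genes and 4 defence genes. Of 578 values of single genes under an alternative, 8 lost a call and 10 gained one; the other 560 stayed on their side of the threshold or, for members, moved by less than the SD. Among these, 10 values of 7 genes changed sign, all with a reported change of 0.10 or less in size and past the threshold in neither fit. The mean over several probe sets was not run, since each member has 1. Dimness limits AT5G52720, AT5G52740 and AT5G52770, and the wild type level of AT5G52760.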

Other observations

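AT5G52760 is one of few probe sets on which wild type replicate 2 stands apart, a look chosen after its values were seen. On that array 9 probe sets lay at least 1 log2 unit above both other wild type arrays, 4 of them naming 1 gene. Those genes were AT5G50010, AT5G52760, AT1G53690 and AT5G35480, with gaps of 1.42, 1.19, 1.13 and 1.08. Of the 9, 1 was higher in sdg2 (11.1%), against 19% of all probe sets, and that is AT5G52760. Nothing is read from this count. On the other arrays between 9 and 21 probe sets stood as far above both others of their genotype.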
